A study of Bos taurus with 9 samples.

Results

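The epidermal differentiation complex (EDC) and the keratin gene clusters of cattle were examined as 3 windows of the bovine assembly UMD3.1.1. The windows were chr3:16500000-19500000 for the EDC, chr5:26500000-28500000 for the type II keratins and chr19:41000000-43500000 for the type I keratins. A ChIP-seq peak belonged to a window when its midpoint lay inside it. Of the 86291 peaks in 8 lists, 1202 met this rule, with 379 in the EDC window, 345 in the type II window and 478 in the type I window. The rest of chromosomes 3, 5 and 19 held 13439 peaks. The windows made up 2.47%, 1.65% and 3.90% of the spans of their chromosomes, where a span ran to the last peak of any list.

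Keratins are the intermediate filament proteins of epithelial cells, and each filament pairs a type I with a type II chain. Most genes of each type lie side by side in a cluster, and different pairs mark basal cells, maturing suprabasal cells, simple epithelia and hair. The EDC holds genes for proteins of the cornified envelope, such as loricrin and involucrin, together with S100 calcium-binding proteins and large fused-type proteins such as trichohyalin and cornulin. The rumen, the first stomach chamber, is lined by a stratified and keratinised epithelium.

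Acetylation of lysine 27 and of lysine 9 of histone H3 (H3K27ac and H3K9ac) marks active promoters and enhancers. Trimethylation of lysine 9 (H3K9me3) is a mark of heterochromatin, and RNA polymerase II (RNA pol II) is the enzyme that transcribes protein-coding genes. Butyrate, a short-chain fatty acid of rumen fermentation, inhibits histone deacetylases.

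The series measured these 4 targets by ChIP-seq in rumen tissue of Holstein cattle. Control tissue was taken before, and butyrate tissue after, 24 h of butyrate treatment. Every antibody was represented by a single library in each condition, so the conditions could not be compared against replicate spread and were not tested. The number, age and sex of the animals are not given in the sources used here. Intervals below are 95% intervals of counting error, and variation between animals, tissue samples or immunoprecipitations is not part of them. They treat each peak as independent, although peaks lay in clusters along the chromosomes, so they are too narrow. The tissue is a mixture of cells, and more cells of a type cannot be told apart from a stronger mark per cell. The lists give positions without scores or read numbers. The paper provides a mapping summary of its data sets, which was not used here, so the depth behind the lists was not examined. All lists were called against the same input library, which was not analysed here. The control and butyrate libraries of H3K27ac, H3K9ac and H3K9me3 were sequenced on different lanes, so lane and condition cannot be told apart for these 3 targets, whereas both RNA pol II libraries shared lane 3.

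The names of the windows were checked as far as a gene table of another assembly, ARS-UCD2.0, allowed. All 25 EDC genes searched for and found by symbol lay on chromosome 3, running from S100A1 through LORICRIN, IVL and TCHH to S100A10. All 26 type II keratin genes lay on chromosome 5, from KRT8 to KRT80. All 28 type I keratin genes searched for, a list from which KRT18 was left out beforehand, lay on chromosome 19, from KRT24 to KRT42. The 10 keratin-associated protein genes of chromosome 19, which encode hair matrix proteins, all lay between KRT40 and KRT33A. Positions in that assembly cannot be carried over to UMD3.1.1, so no peak was assigned to a gene and the position of these genes inside the windows was not checked.

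**Figure D1:**
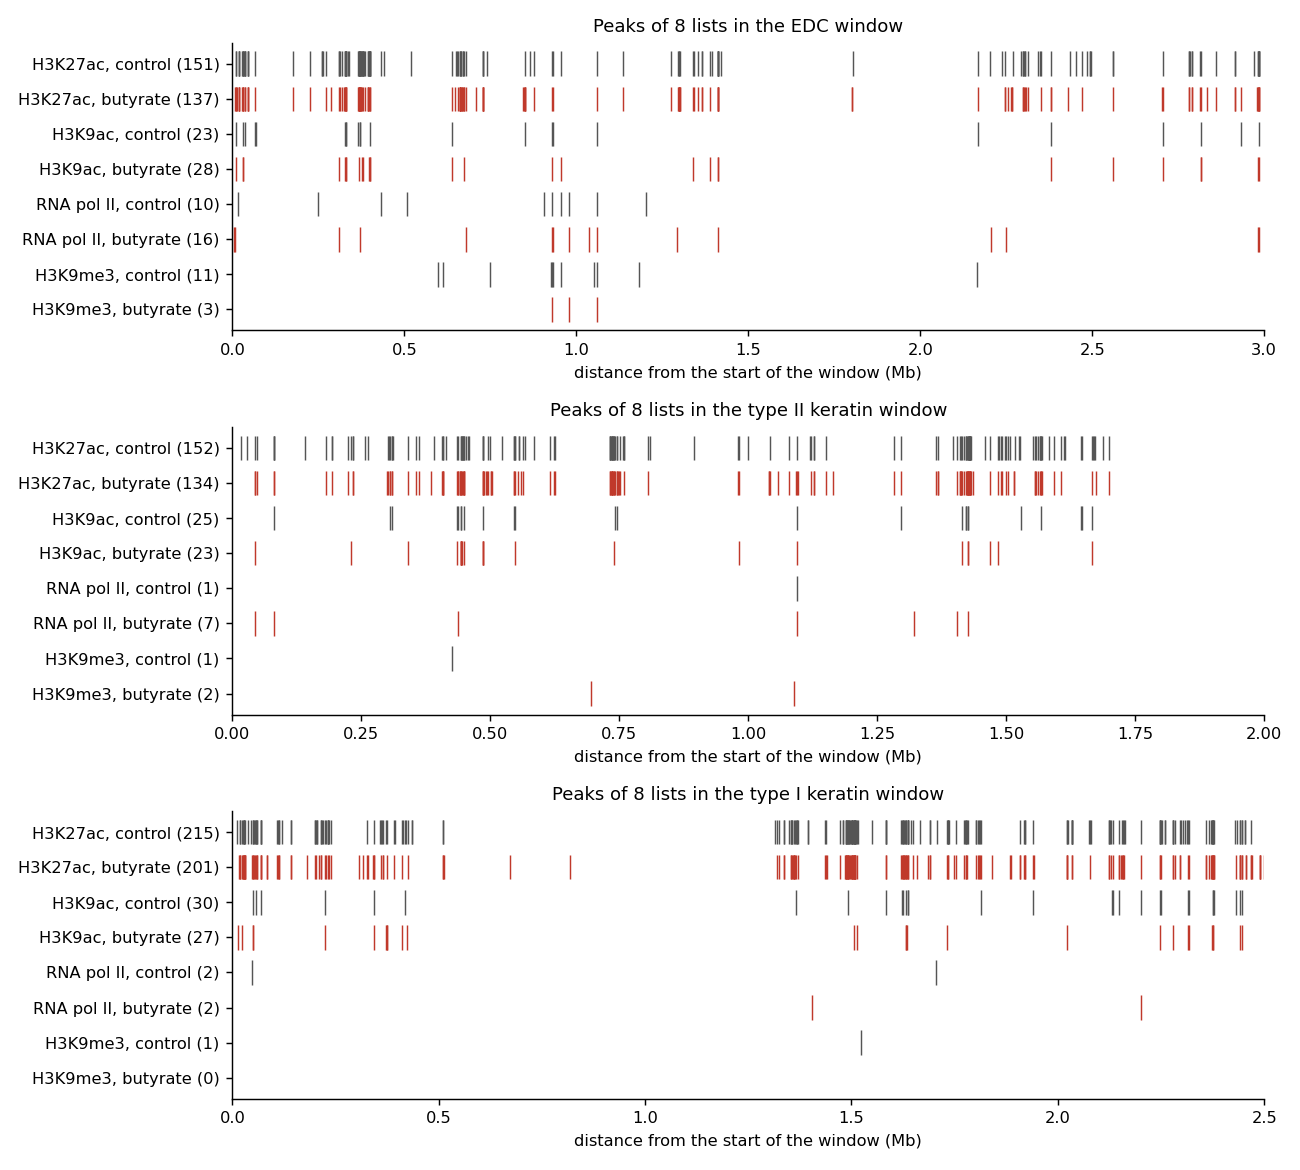
Midpoints of all 1202 peaks, plotted by distance from the start of each window in Mb, with 1 row for each antibody and condition (control in grey, butyrate in red) and the number of peaks in parentheses. The H3K27ac rows hold dense groups of peaks and long empty stretches at the same places in both conditions, and RNA pol II and H3K9me3 ticks of the EDC window gather near 1 Mb.

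Acetylated peaks were crowded in all 3 windows. In the EDC window the control H3K27ac list had 151 peaks, or 50.3 per Mb against 16.5 per Mb over the rest of chromosome 3, a density 3.04-fold higher (2.56 to 3.59). The butyrate list had 137 peaks there and a 2.99-fold higher density (2.50 to 3.56). H3K27ac in the type II window had 152 control peaks and 134 butyrate peaks, 4.78-fold (4.02 to 5.64) and 4.70-fold (3.91 to 5.61) the density of the rest of chromosome 5. H3K27ac was densest in the type I window, with 86.0 control and 80.4 butyrate peaks per Mb. Because the rest of chromosome 19 was itself dense, at 34.2 and 29.1 per Mb, the ratios were the lowest of the 3 windows, 2.52 (2.18 to 2.90) and 2.77 (2.38 to 3.20).

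H3K9ac, with far shorter lists, gave ratios of the same order. The EDC window held 23 control peaks, 3.49-fold the density of the rest of its chromosome (2.17 to 5.35), and 28 butyrate peaks, 4.35-fold (2.83 to 6.44). The type II window held 25 control peaks at 5.10-fold (3.25 to 7.68) and 23 butyrate peaks at 5.21-fold (3.25 to 7.99). In the type I window there were 30 control peaks at 3.16-fold (2.08 to 4.63) and 27 butyrate peaks at 2.68-fold (1.73 to 4.0). With the windows as given, no interval of the 12 acetylation ratios reached 1. These intervals leave out the clustering of peaks. Stretches of chromosome 3 as long as the EDC window held from 0 to 267 control H3K27ac peaks. With windows 250 kb shorter at both ends the butyrate H3K9ac ratio of the type I window was 1.66 (0.897 to 2.84), an interval that included 1.

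RNA pol II and H3K9me3 were spread unevenly over the windows and conditions. RNA pol II had 10 control peaks in the EDC window, 3.33 per Mb against 0.279 per Mb elsewhere on chromosome 3, a ratio of 12.0 (5.26 to 24.8). After butyrate it had 16 peaks there and a ratio of 8.09 (4.41 to 14.0). H3K9me3 had 11 control peaks in the EDC window, 6.58-fold the density elsewhere (3.13 to 12.5), but 3 peaks after butyrate, 1.56-fold (0.314 to 4.73). Part of these peaks lay in chr3:17400001-17600000, singled out after the values were seen for its high number of them. Without it the ratios of the EDC window were 6.41 (1.95 to 16.5) for control and 5.96 (2.86 to 11.3) for butyrate RNA pol II and 3.20 (1.01 to 7.86) for control H3K9me3, and butyrate H3K9me3 had 0 peaks. In the type II window RNA pol II had 1 control peak, a ratio of 1.19 (0.0296 to 6.95), and 7 butyrate peaks, a ratio of 6.13 (2.38 to 13.3). H3K9me3 had 1 and 2 peaks in that window. The type I window held 2 RNA pol II peaks in either condition, with ratios of 1.37 (0.160 to 5.31) and 1.30 (0.151 to 5.01). It held 1 control H3K9me3 peak and 0 butyrate H3K9me3 peaks, and a count of 0 allows up to 1.20 peaks per Mb, or 1.85-fold the density of the rest. At these numbers an excess of RNA pol II or H3K9me3 in the type I window was not detectable.

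**Figure D2:**
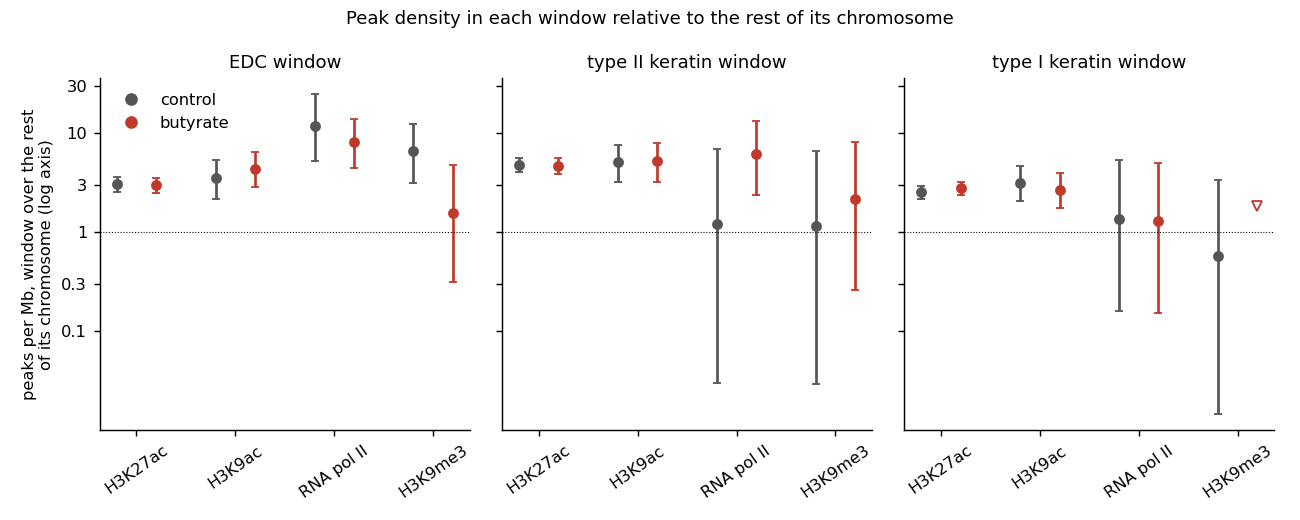
Peaks per Mb in each window divided by peaks per Mb over the rest of its chromosome, on a log axis, for control (grey) and butyrate (red); bars are 95% counting intervals, the dotted line is equal density, and the open triangle is the limit allowed by 0 peaks. All 12 H3K27ac and H3K9ac points lie between 2.52 and 5.21, and the RNA pol II points lie at 12.0 and 8.09 in the EDC window and near 1 in the type I window.

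Each window was also set beside stretches of its own length laid outwards from it along the chromosome, as a description. The type II window ranked first of 60 such stretches and the type I window first of 25 for H3K27ac and for H3K9ac, in control and after butyrate. The highest other stretch of chromosome 5 held 119 control H3K27ac peaks, and that of chromosome 19 held 170, against 152 and 215 in the windows. The EDC window was not the densest stretch of chromosome 3 in acetylation. It had rank 3 of 39 for H3K27ac in both conditions, and the 3 Mb just before it held 267 control and 220 butyrate peaks. The 3 Mb just after it held 164 and 156 peaks, also more than the window. For RNA pol II the EDC window ranked first of 39 in both conditions, with 10 control peaks against at most 5 in another stretch and 16 butyrate peaks against at most 10. For H3K9me3 it ranked first in control, with 11 peaks against at most 8, and had rank 8 after butyrate. These first ranks leaned on chr3:17400001-17600000. Without it the EDC window held 5 control RNA pol II peaks, as many as the highest other stretch, and 11 butyrate RNA pol II peaks. Control H3K9me3 then had 5 peaks, fewer than the 8 of the highest other stretch. The type II window ranked first of 60 for butyrate RNA pol II, with 7 peaks against at most 6.

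H3K27ac peaks in the windows were about as wide as elsewhere. The median width of H3K27ac peaks in the 3 windows lay between 291 and 336 bp, beside 298 to 313 bp over the rest of the same chromosomes. In the type I window 25.1% of control H3K27ac peaks were wider than 500 bp (19.8 to 31.3), beside 18.9% of the rest of chromosome 19, and 24.4% of butyrate peaks (19 to 30.8), beside 19.6%. The other windows had 16.6% to 20.1% of H3K27ac peaks above that width. H3K27ac peaks covered 1.84% of the EDC window in control, 2.96% of the type II window and 3.41% of the type I window, 3.0-fold, 4.92-fold and 2.67-fold the cover of the rest of their chromosomes. Control H3K9me3 peaks of the EDC window were wider, with a median of 285 bp over 11 peaks beside 223 bp over the rest of chromosome 3, and their cover was 9.11-fold that of the rest. The widest of them, of 722, 680 and 481 bp, all lay in chr3:17400001-17600000, and those outside it measured 238 to 345 bp.

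Within the windows the peaks were gathered in a few places. In the EDC window the 100 kb bin chr3:16800001-16900000 held 38 control H3K27ac peaks, more than any other of the 1214 bins of chromosome 3. It held 28 after butyrate, a number that 1 other bin equalled and none exceeded. The same bin held 7 control and 10 butyrate H3K9ac peaks, the highest numbers of chromosome 3 in both lists. The densest type II bin, chr5:27900001-28000000, held 25 H3K27ac peaks in either condition, and 4 of the 1212 bins of chromosome 5 held more. The densest type I bin, chr19:41000001-41100000, held 22 control and 25 butyrate peaks, with 1 of 641 bins above it in either list. The 5 densest bins of a window together held 55.6% of its control H3K27ac peaks in the EDC, 61.2% in the type II window and 42.8% in the type I window.

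**Figure D3:**
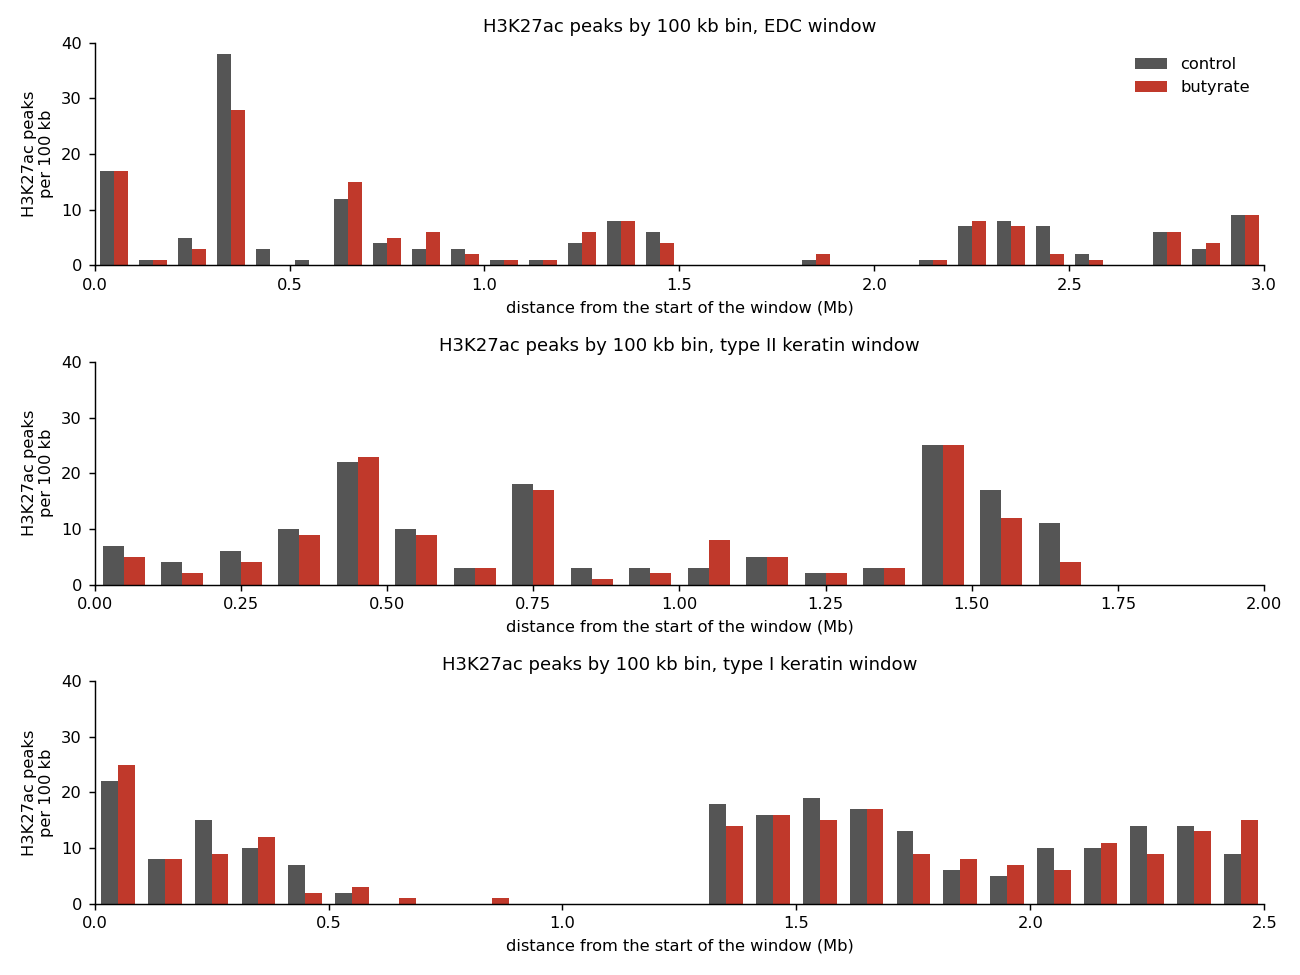
Number of H3K27ac peaks in each 100 kb bin, plotted by distance from the start of the window in Mb, for control (grey) and butyrate (red). The highest bars are 38 and 28 in the EDC window, 25 and 25 in the type II window and 22 and 25 in the type I window, and a run of nearly empty bins interrupts or ends each window.

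Joining H3K27ac peaks no more than 12.5 kb apart gave clusters, the usual first step in outlining large enhancers. The EDC cluster with the most base pairs under peaks lay at chr3:16866041-16900373 in control, with 26 peaks and 10.8 kb under peaks. After butyrate it was found at chr3:16866156-16900276 with 19 peaks and 8.59 kb. It had rank 5 on chromosome 3 in both conditions, and it held 4 control and 6 butyrate H3K9ac peaks. The widest butyrate H3K27ac peak of the EDC window, chr3:16899070-16900276 with 1207 bp, closed this cluster, and in control 3 separate peaks lay across it. The widest control peak of the window, chr3:17839235-17840426 with 1192 bp, lay outside the cluster and met a butyrate peak of 1108 bp.

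In the type II window the largest cluster was chr5:27896772-27931838 in control, with 19 peaks and 9.33 kb, and chr5:27903865-27934806 after butyrate, with 20 peaks and 8.47 kb. It had rank 5 on chromosome 5 in control and rank 3 after butyrate. It held the widest peak of any list in the 3 windows, a control H3K27ac peak of 1763 bp at chr5:27924480-27926242. After butyrate 3 peaks lay across that peak, and the butyrate list had an RNA pol II peak of 234 bp on it, at chr5:27925887-27926120. The widest butyrate H3K27ac peak of the window, chr5:27921344-27922774 with 1431 bp, lay in the same cluster and met 2 control peaks.

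The type I window held the H3K27ac cluster with the most base pairs of all chromosome 19 in either condition, but not the same one. In control it was chr19:41012137-41070426, with 22 peaks and 12.2 kb. After butyrate it was chr19:42484942-42513749, with 25 peaks and 10.3 kb. Peak numbers at these places differed little between conditions. The first place held 22 control and 23 butyrate peaks, with 12.2 and 12.0 kb under them, but the longest empty interval inside it was 8.85 kb in control and 15.5 kb after butyrate, which exceeds the joining distance. The second place held 25 peaks and 10.3 kb in both conditions. The widest H3K27ac peak of this window was nearly the same in both lists, chr19:41050130-41051549 in control with 1420 bp and chr19:41050130-41051555 after butyrate with 1426 bp. The widest control H3K9ac peak, chr19:41049382-41049868 with 487 bp, lay in the same cluster, 187 bp from the nearest butyrate H3K9ac peak.

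Long stretches without H3K27ac stood beside these clusters. In the type I window the longest was chr19:41818046-42315032, 497 kb without an H3K27ac peak in either condition, and 12 of the 2794 intervals between H3K27ac peaks of chromosome 19 were longer. Together with the 2 intervals before it, which were noticed after the values were seen, it formed chr19:41511775-42315032, 803 kb in which the 8 lists held 2 peaks, both butyrate H3K27ac peaks. In the EDC window the longest was chr3:17921408-18300725, 379 kb, followed by chr3:18303952-18667139, 363 kb, and 60 and 62 of the 2651 intervals of chromosome 3 were longer. The 746 kb from the first to the last base of this pair held 4 peaks of the 8 lists. In the type II window the longest began at chr5:28199000 and ran beyond the window, with 67 of the 2525 intervals of chromosome 5 longer, and from there to the end of the window, over 15.1% of its length, all 8 lists had 0 peaks. The longest one lying wholly inside that window was chr5:27664756-27783094, 118 kb. The windows were thus mosaics, and outside these stretches control H3K27ac reached 66.5, 89.5 and 127 peaks per Mb in the EDC, type II and type I windows. Empty 100 kb bins were still rarer than elsewhere, at 20%, 15% and 28% for control H3K27ac beside 59.3%, 63.1% and 41.2% over the rest of each chromosome.

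The next comparison asked whether butyrate was accompanied by another change of peak number in the windows than over the rest of the same chromosome. For H3K27ac it was not detectably so. The log2 ratio of butyrate to control peak number was −0.14 in the EDC window beside −0.12 over the rest of chromosome 3, −0.18 in the type II window beside −0.16, and −0.10 in the type I window beside −0.23. The differences between window and rest were −0.02 (−0.38 to 0.33), −0.02 (−0.38 to 0.33) and 0.14 (−0.16 to 0.44) on the log2 scale. Base pairs under H3K27ac peaks moved likewise, from 55.2 to 51.3 kb, from 59.2 to 53.6 kb and from 85.2 to 78.8 kb. Their log2 ratios were −0.11, −0.14 and −0.11.

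For H3K9ac the 3 windows together held 78 peaks in either condition. The differences between window and rest were 0.32 (−0.57 to 1.22) in the EDC, 0.03 (−0.89 to 0.95) in the type II window and −0.24 (−1.09 to 0.61) in the type I window. For RNA pol II, whose lists grew over the whole genome from 863 to 1492 peaks, the number in the EDC window went from 10 to 16, a log2 ratio of 0.68 beside 1.24 over the rest of chromosome 3. For the type II window it went from 1 to 7, a log2 ratio of 2.81 beside 0.44, but the difference of 2.36 had an interval from −0.68 to 7.89. The type I window had 2 peaks in either condition. In no window did the change of RNA pol II peak number between conditions differ detectably from that over the rest of its chromosome.

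H3K9me3 in the EDC window was the exception among the 11 differences that could be computed. It had 11 control and 3 butyrate peaks, whereas the rest of chromosome 3 had 66 and 76. The log2 ratios were −1.87 and 0.20, and their difference was −2.08 (−4.61 to −0.06). The upper bound lies close to 0, the counts are small, and the interval makes no allowance for the 11 differences examined. The control library ran on lane 3 and the butyrate library on lane 4, so the difference remains a description of these 2 libraries. Outside chr3:17400001-17600000 the window had 5 control peaks and 0 butyrate peaks.

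**Figure D4:**
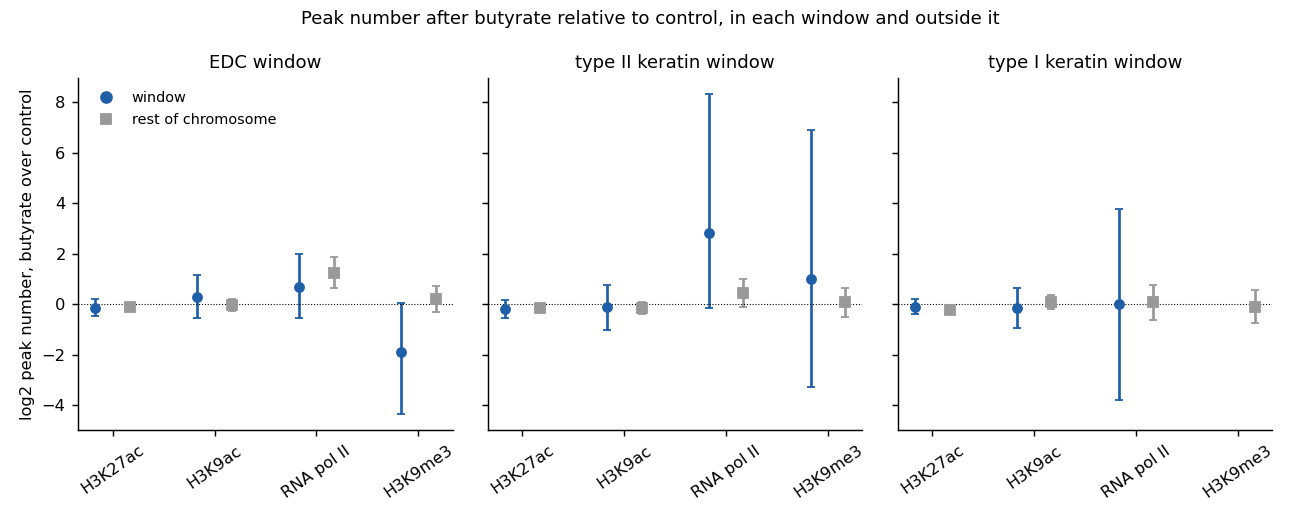
Log2 ratio of butyrate to control peak number in each window (blue circles) and over the rest of its chromosome (grey squares), for each antibody; bars are 95% counting intervals, and type I H3K9me3 has no window point because the butyrate list held 0 peaks. Window and rest lie close together for both acetylation marks, and the EDC H3K9me3 point lies at −1.87 beside 0.20.

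Whether single peaks recurred between conditions was examined by an overlap of at least 1 bp. A peak without such an overlap was counted as present in 1 condition only, which over the whole list applied to 40.1% of control and 31.9% of butyrate H3K27ac peaks. In control, 55 of 151 peaks of the EDC window, 55 of 152 of the type II window and 70 of 215 of the type I window were of this kind. After butyrate the numbers were 44 of 137, 36 of 134 and 52 of 201. The share found in the other condition was 63.6% (55.7 to 70.8), 63.8% (55.9 to 71.0) and 67.4% (60.9 to 73.4) in control, beside 63.2%, 62.0% and 61.4% over the rest of each chromosome. After butyrate it was 67.9% (59.7 to 75.1), 73.1% (65.1 to 79.9) and 74.1% (67.7 to 79.7), beside 67.9%, 69.5% and 72.1%. Every odds ratio of window to rest had an interval that included 1, so recurrence was near the background.

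Wide peaks recurred more often than narrow ones. Of control H3K27ac peaks wider than 500 bp, 21 of 25, 28 of 30 and 51 of 54 were found after butyrate in the EDC, type II and type I windows (84%, 93.3% and 94.4%), beside 95.2%, 95.3% and 94% over the rest of each chromosome. Of those of 200 to 300 bp 26 of 64, 28 of 64 and 51 of 101 were found (40.6%, 43.8% and 50.5%), beside 46.2%, 44.3% and 43%. The EDC share of wide peaks was thus below that of its chromosome, with 4 of 25 peaks not found, and this difference was not tested. Among pairs that met 1 to 1, the median log2 ratio of butyrate to control width was near 0, at 0.00, −0.05 and −0.05 over 75, 81 and 125 pairs.

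The widest H3K27ac peaks of 1 condition only often lay close to a peak of the other. The widest control-only peak of the EDC window, chr3:16893783-16894442 with 660 bp, lay 59 bp from a butyrate peak, inside the large cluster. That of the type II window, chr5:28172273-28172886 with 614 bp, lay 401 bp from one, and that of the type I window, chr19:42644990-42645787 with 798 bp, lay 3861 bp from one. The widest butyrate-only peaks were chr3:17166900-17167426 with 527 bp, chr5:26993375-26994260 with 886 bp and chr19:43431673-43432307 with 635 bp, at 1957, 469 and 929 bp from the nearest control peak. The last of them lay under a control H3K9ac peak, whereas the other 5 met no peak of another list.

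H3K9ac peaks recurred less. Over the whole list 67.1% of control and 68.9% of butyrate H3K9ac peaks were in 1 condition only, and in the windows these were 12 of 23, 14 of 25 and 21 of 30 in control and 18 of 28, 11 of 23 and 18 of 27 after butyrate. The type II window had the highest shares found in the other condition, 44.0% (26.7 to 62.9) in control and 52.2% (33.0 to 70.8) after butyrate, beside 30.8% and 35% over the rest of chromosome 5, with intervals of the odds ratio that included 1. The widest H3K9ac peak of the windows, chr3:19203979-19204664 with 686 bp after butyrate, met a control peak of 269 bp. The widest of the type II window were chr5:26985998-26986573 with 576 bp in control, which met 2 butyrate peaks, and chr5:27048134-27048588 with 455 bp after butyrate, which met 1 control peak. In the type I window the widest butyrate peak, chr19:41343209-41343726 with 518 bp, met a control peak of 249 bp. Of the H3K9ac peaks in 1 condition only, the widest of the EDC window were chr3:16536650-16536984 with 335 bp in control and chr3:17172779-17173156 with 378 bp after butyrate, and the nearest H3K9ac peak of the other condition lay 5600 and 34117 bp away. The widest butyrate-only one of the type II window, chr5:26543987-26544432 with 446 bp, lay 36455 bp from the nearest control H3K9ac peak and on H3K27ac of butyrate alone.

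**Figure D5:**
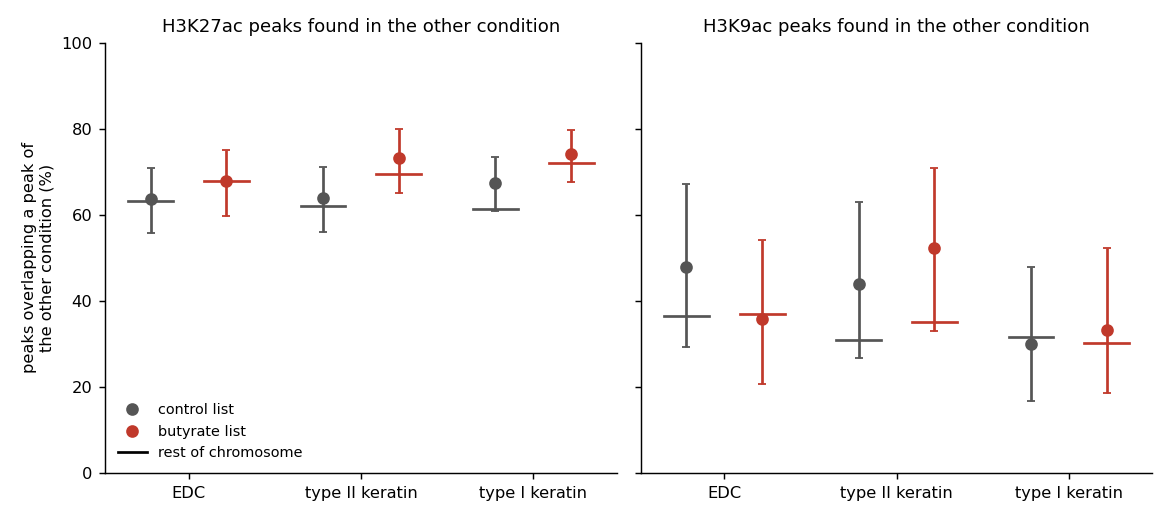
Percent of H3K27ac peaks (left) and H3K9ac peaks (right) of each window that overlap a peak of the other condition, for the control list (grey) and the butyrate list (red); bars are 95% Wilson intervals and horizontal lines are the values over the rest of the chromosome. H3K27ac shares lie between 63.6% and 74.1%, H3K9ac shares between 30% and 52.2%, and the lines fall inside the bars.

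RNA pol II and H3K9me3 peaks of 1 condition only were the rule in the whole lists, at 79.3% of control and 88.5% of butyrate RNA pol II peaks and 71.1% of control and 73.6% of butyrate H3K9me3 peaks. In the EDC window 7 of 10 control and 13 of 16 butyrate RNA pol II peaks, and 9 of 11 control and 1 of 3 butyrate H3K9me3 peaks, were of this kind. The single control RNA pol II peak of the type II window recurred and 6 of 7 butyrate peaks did not. In the type I window none of the 4 RNA pol II peaks recurred.

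H3K9ac and H3K27ac largely fell on the same places. Over the whole lists 86% of control and 83% of butyrate H3K9ac peaks overlapped an H3K27ac peak of their condition. In the windows 72 of 78 did in control (92.3%, 84.2 to 96.4) and 68 of 78 after butyrate (87.2%, 78.0 to 92.9), beside 85.6% and 86.9% over the rest of the 3 chromosomes. When the peaks of all 8 lists were joined into regions, the EDC window held 210, the type II window 187 and the type I window 264. H3K27ac was present in both conditions in 88, 91 and 137 of these regions, or 47.6%, 50% and 53.3% of those with any H3K27ac, beside 47.3%, 47.2% and 48.4% over the rest of each chromosome. It was present in control only in 54, 55 and 68, and in butyrate only in 43, 36 and 52. The split into control only and butyrate only was not computed over the rest of each chromosome. Of the regions that held H3K9ac in at least 1 condition, 30 of 39, 26 of 31 and 37 of 43 had H3K27ac in both. These shares of 76.9%, 83.9% and 86.0% stood beside 78.6%, 76.3% and 79.4% over the rest of each chromosome. All 4 acetylation lists met in 11, 9 and 11 regions, and the share over the rest of each chromosome was not computed. Regions with H3K9ac in a single condition lay on H3K27ac of both conditions in 19 of 28 (67.9%, 49.3 to 82.1), 17 of 22 (77.3%, 56.6 to 89.9) and 26 of 32 cases (81.2%, 64.7 to 91.1), beside 73.5%, 71.8% and 75.1% over the rest of each chromosome, which lay inside these intervals. The widest control-only H3K9ac peak of the type II window, chr5:28066876-28067255 with 380 bp, lay on H3K27ac peaks of both conditions, and so did the widest butyrate-only one of the type I window, chr19:41022445-41022919 with 475 bp.

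RNA pol II met acetylation in part of its peaks. Over the whole lists 31.3% of control and 29% of butyrate RNA pol II peaks overlapped H3K27ac, and 12.2% of control and 12.2% of butyrate peaks overlapped H3K9ac. In the windows 4 of 13 control and 13 of 25 butyrate RNA pol II peaks lay on H3K27ac (30.8% and 52%), beside 40.3% and 40.8% over the rest of the 3 chromosomes. On H3K9ac lay 3 of 13 control peaks and 8 of 25 butyrate peaks. The butyrate share of 32% (17.2 to 51.6) stood beside 9.78% (6.28 to 14.9) over the rest of the 3 chromosomes, and 6 of the 8 peaks lay in the EDC window.

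In the type II window the single control RNA pol II peak, chr5:27594449-27594677 with 229 bp, lay in the region chr5:27594414-27594745, which 6 of the 8 lists held, all but those of H3K9me3. The 3 widest butyrate RNA pol II peaks there were chr5:26543339-26543591 with 253 bp, chr5:26581011-26581254 with 244 bp and chr5:27925887-27926120 with 234 bp, and each of them lay on H3K27ac of both conditions. The 3 H3K9me3 peaks of this window, chr5:26926548-26926750 in control and chr5:27194874-27195100 and chr5:27589017-27589230 after butyrate, met no peak of another list. In the type I window the control RNA pol II peak chr19:41046612-41046915 with 304 bp lay in the large control cluster on H3K27ac of both conditions. The other control peak, chr19:42704834-42705033, the butyrate peaks chr19:42404746-42404977 and chr19:43200816-43201051, and the control H3K9me3 peak chr19:42523175-42523412 met no peak of another list.

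The stretch chr3:17400001-17600000 makes up 6.67% of the EDC window. It was chosen as the pair of neighbouring 100 kb bins with the most RNA pol II and H3K9me3 peaks there. A high share of these peaks thus follows from the choice and is no separate result. The stretch held 5 of 10 control and 5 of 16 butyrate RNA pol II peaks and 6 of 11 control and 3 of 3 butyrate H3K9me3 peaks. It held 4 of 151 control and 3 of 137 butyrate H3K27ac peaks.

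This stretch held the only region of the 3 windows that all 8 lists shared, chr3:17429201-17429939. It carried the widest H3K9me3 peak of the EDC window in control, chr3:17429201-17429922 with 722 bp, and in butyrate, chr3:17429535-17429791 with 257 bp. It also carried the widest butyrate RNA pol II peak, chr3:17429451-17429939 with 489 bp, and a control RNA pol II peak of 282 bp. A second region, chr3:17560749-17561080, was shared by 7 lists, all but butyrate H3K9ac. H3K9me3 was thus called in these regions together with acetylation and RNA pol II, marks with opposite associations. In the EDC window 3 of 11 control H3K9me3 peaks lay on H3K27ac (27.3%, 9.75 to 56.6), beside 2 of 66 over the rest of chromosome 3 (3.03%, 0.835 to 10.4). RNA pol II overlapped H3K9me3 in 24.7% of control and 17.6% of butyrate peaks over the whole lists. In the EDC window 3 of 10 and 3 of 16 peaks did, beside 4 of 33 (12.1%) and 3 of 78 (3.85%) over the rest of chromosome 3. All 3 butyrate H3K9me3 peaks of the EDC window lay on RNA pol II, beside 3 of 76 (3.95%) over that rest. For control H3K9me3 it was 3 of 11, beside 4 of 66 (6.06%). All these overlaps of the EDC window lay inside the chosen stretch, and several of the counts repeat the same places. They describe this stretch and not the EDC window as a whole.

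Borders of these peaks coincided to the base. In the region chr3:17560749-17561080 the peaks of all 7 lists overlapped, and those of both H3K27ac, both RNA pol II, both H3K9me3 and the control H3K9ac list began at the same base. At chr3:16869496-16869938, in the largest H3K27ac cluster of the window, the widest control H3K9ac peak and a butyrate RNA pol II peak had the same start and the same end. In the EDC window 2 of 10 control and 4 of 16 butyrate RNA pol II peaks, and 1 of 11 control and 2 of 3 butyrate H3K9me3 peaks, shared their start with a peak of another antibody. Over the rest of chromosome 3 this was so for 1 of 33, 1 of 78, 0 of 66 and 1 of 76. The EDC counts are not all separate places. The start at base 17560749 was counted in both RNA pol II and both H3K9me3 lists. That at base 17477738 was counted in both RNA pol II lists and in butyrate H3K9me3. In the keratin windows none of the 16 RNA pol II and H3K9me3 peaks shared a start in this way, but H3K9ac peaks did in all 3 windows. For control H3K9ac this was 5 of 23 in the EDC, 2 of 25 in the type II and 5 of 30 in the type I window (21.7%, 8% and 16.7%), beside 4.62%, 6.16% and 5.56% over the rest of each chromosome. For butyrate H3K9ac it was 1 of 28, 3 of 23 and 2 of 27 (3.57%, 13% and 7.41%), beside 5.51%, 7.6% and 7.26%. The lists share 1 input library and the sequence under these peaks was not used here, and the part of either in the coinciding borders was not tested.

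Other wide EDC peaks of these antibodies differed in how many other lists they met. The widest control RNA pol II peak, chr3:16750302-16750655 with 354 bp, met no peak of another list. The control H3K9me3 peak chr3:17454159-17454639 with 481 bp met a control RNA pol II and a butyrate H3K9ac peak but no H3K27ac peak, and chr3:17431075-17431754 with 680 bp met H3K27ac of both conditions, control H3K9ac and butyrate RNA pol II.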

How the data were processed

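ChIP-seq libraries of rumen tissue were grouped by labelled antibody and condition. Per the methods of the study, the authors aligned reads of 75 nt with BWA to UMD3.1.1, kept uniquely aligned reads with fewer than 2 mismatches and called peaks per library with MACS2 at default settings against 1 input. The submitters' processing notes also name Trim Galore 0.4.1. The deposited lists hold 3 columns, the chromosome, start and end of each peak. Positions were read as 1-based and inclusive, so that the narrowest peak measured 200 bp. Whether reads were single-end or paired-end is described differently in the sources.

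Density ratios have exact (Clopper-Pearson) 95% intervals, shares Wilson intervals, and differences of log2 ratios exact conditional intervals (scipy 1.17.1, pandas 2.3.3, Python 3.11.15). The functions were tested on simulated data. Bins of 100 kb, an overlap of 1 bp and a joining distance of 12.5 kb were used. The limit for a count of 0 is 3 counts. Lists carry no scores, so width was used instead. By rule, the text names the widest peak of a list, the widest acetylated peaks of 1 condition only, RNA pol II and H3K9me3 peaks (the 3 widest where a list had more than 6 in a window), the largest clusters, the longest H3K27ac-free stretches, the densest bins and regions held by 6 or more lists. The windows and lists were chosen with earlier results of these data known. A gene table of ARS-UCD2.0 gave names and order only. No genome of UMD3.1.1 was used here, so no sequence is shown. Alternatives were peak width, membership rule, window borders, merging, reference and overlap rule.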

Additional observations from a re-analysis of the deposited data

How the results depend on the processing

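The 68 density ratios, number ratios, base-pair ratios and shares were recomputed 305 times under the alternatives. Of these values 280 stayed inside the 95% interval of the value reported, 25 lay outside it and 0 reversed a direction whose interval lacked 0. Base-pair ratios have no interval of their own and were judged by that of the number ratio, moved to their value. Counting any overlap with a window gave the same density ratios as the midpoint rule, so that alternative added no check. With windows 250 kb shorter at both ends, the density ratio was 5.72 (control) and 5.79 (butyrate) for type II H3K27ac, 1.95 and 2.08 for type I H3K27ac and 1.66 (0.897 to 2.84, which includes 1) for butyrate type I H3K9ac, and the share of type I H3K9ac peaks found in the other condition was 11.8% in control and 14.3% after butyrate. Against chromosomes 1 to 29 the type I ratios were 5.90 and 6.23 for H3K27ac and 7.51 and 6.47 for H3K9ac in control and butyrate, and the control type II H3K9ac ratio was 7.82. With peaks up to 1 kb apart merged, the butyrate type I H3K27ac ratio was 2.33. With narrower peaks than the list's median left out, the control EDC H3K9me3 ratio was 12.7, the EDC H3K27ac log2 number ratio was −0.58, the share found was 80.3% for butyrate EDC H3K27ac and 100% for butyrate EDC H3K9me3, and for type II RNA pol II it was 0% in control and 0% after butyrate. With a gap of up to 500 bp allowed, H3K27ac shares in control and butyrate were 75.5% and 81.0% (EDC), 73.0% and 85.1% (type II) and 77.7% and 84.6% (type I). The cause of these shifts was not tested. The difference of EDC H3K9me3 from its chromosome lay between −3.41 and −2.07 under the other settings that gave a value. These reuse the same few peaks of 1 library per condition and are no independent check. Settings that left 0 peaks in a list gave no ratio. No paired analysis was possible because the replicate number 1 is the only one in each group, and no replicate could be left out. Peak lists without read numbers do not show how depth limits these values.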
